A study of Mus musculus with 6 samples.

Results

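Values of 9 genes are described here in wild type (WT) and *Bdh2*-knockout advanced embryonic stem cells (ASCs), a mouse pluripotent stem cell type held between the naïve and the primed state. They are *S100g*, *Srgn*, *Pth1r*, *Pthlh*, *Vdr*, *Thbd*, *Plat*, *Snai1* and *Snai2*, which are 9 of the 54715 rows of the gene count table. Genes tied to the parietal endoderm and to parathyroid hormone-related signaling were picked by name around *S100g*, *Srgn* and *Pth1r*, which had been seen to be higher in the knockout. The counts of both genotypes were therefore known when the 9 were chosen, and their differences are given as a description, without p-values. How many of them the fit over all genes called is given once, and nothing is read from it.

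RNA-Seq was performed on 3 WT and 3 *Bdh2*-knockout ASC replicates. The cells came from a cross of a 129/sv female with a GOF/GFP male, and both genotypes grew in the same medium with activin A, BMP4, CHIR99021 (an inhibitor of GSK3) and leukemia inhibitory factor. The knockout was made by CRISPR/Cas9 with guides near the start codon of *Bdh2*, and 1 ASC line with a deletion on both alleles was used, so the genotype and anything particular to this clone cannot be told apart. It is not stated whether the replicates were separate cultures, so p-values measure only the spread between these samples.

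The parietal endoderm is an extraembryonic cell type that descends from the primitive endoderm, migrates over the inner face of the trophoblast and lays down Reichert's membrane, a thick basement membrane of laminin and type IV collagen. Parathyroid hormone-related peptide, the product of *Pthlh*, acts through the receptor encoded by *Pth1r* and is known to drive primitive endoderm-like cells toward parietal endoderm in culture. This step is an early example of an epithelial-mesenchymal transition, in which *Snai1* and *Snai2* repress epithelial genes, while *Thbd* (thrombomodulin) and *Plat* (tissue plasminogen activator) are long-used parietal endoderm markers.

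The libraries held between 18927748 and 28333541 counts, and the floor of 3 counts used here corresponds to 0.106 to 0.158 CPM (counts scaled to library size). It covers counting error only. *Bdh2*, the targeted gene, had 203, 193 and 209 counts in the WT libraries against 164, 136 and 129 in the knockout. It fell by 0.79 on the log2 scale (standard error 0.12, with a Benjamini-Hochberg adjusted p = 2.46e-04 in the edgeR fit), so its RNA remained present. Across 16758 tested genes, 6996 (41.7%) were called at an adjusted p under 0.05, 3518 higher (21.0%) and 3478 lower (20.8%) in the knockout. Without TMM normalization the split was 2731 higher and 4451 lower. WT and knockout values were fully separate for 8775 tested genes (52.4%), and 4402 of these (26.3% of the tested genes) were higher in the knockout. Summed markers of pluripotent stem cells were at 7123 to 7320 CPM in WT ASCs and 7211 to 7285 CPM in *Bdh2*-knockout ASCs, while single markers moved, with 8 of 12 called higher, 1 lower and a median of 0.18 on the log2 scale. Summed hepatocyte markers varied within a genotype, at 545, 332 and 52.3 CPM in WT ASC replicates 1, 2 and 3 and 42.2, 152 and 30.6 CPM in the knockout replicates, and 9 of the 12 were called lower. In bulk RNA, fewer cells of a type and less RNA per cell cannot be told apart.

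The 250 bases upstream of the start site of the genes with the largest differences are shown because these stretches differ in base composition and in matches to short motifs of endoderm factors and of the TATA box. The sequences are from RefSeq on GRCm38.p6, read 5′ to 3′ on the strand of the gene, and capitals mark matches to the motifs named after them. For *Srgn* and *Pth1r* the start site farthest upstream was used.
S100g, chrX:162964600-162964849, minus strand: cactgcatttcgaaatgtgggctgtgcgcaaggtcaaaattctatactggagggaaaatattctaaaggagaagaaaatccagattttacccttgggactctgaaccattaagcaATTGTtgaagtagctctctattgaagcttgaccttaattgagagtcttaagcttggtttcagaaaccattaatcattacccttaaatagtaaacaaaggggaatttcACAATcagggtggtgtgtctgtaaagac
Srgn, chr10:62527446-62527695, minus strand: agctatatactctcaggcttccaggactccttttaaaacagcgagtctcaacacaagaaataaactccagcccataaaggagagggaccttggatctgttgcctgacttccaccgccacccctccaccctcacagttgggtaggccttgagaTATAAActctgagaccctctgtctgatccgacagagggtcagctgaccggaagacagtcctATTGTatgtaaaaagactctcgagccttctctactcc
Pth1r, chr9:110747146-110747395, minus strand: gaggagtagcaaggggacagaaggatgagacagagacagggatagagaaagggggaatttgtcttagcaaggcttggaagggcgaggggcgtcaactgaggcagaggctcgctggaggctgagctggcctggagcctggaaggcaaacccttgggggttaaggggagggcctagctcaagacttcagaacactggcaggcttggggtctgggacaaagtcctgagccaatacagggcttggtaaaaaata
Motifs were searched on both strands, and no match shown overlaps another. For GATA factors the letters were AGATAA, or with another last base AGATAG, or with another first base TGATAA, or with both changes TGATAG. For SOX factors the letters were ACAAT, and for the TATA box the letters were TATAAA. The *S100g* stretch held 2 SOX matches, the first bases of which lay 135 and 28 bases before the start, and a GC content of 38.4%. The *Srgn* stretch, with a GC content of 49.6%, held 1 SOX match at 37 and 1 TATA box match at 98 bases before the start. The *Pth1r* stretch had a GC content of 56% and no match. The stretches before the other start sites, not shown, held no match for either gene. Their GC content was 42.8% for *Srgn* and 65.6% and 70.4% for *Pth1r*. Among 32851 promoters of the same length, 26.5% held a match for GATA factors, 27.7% a SOX match and 12.4% a TATA box match, and the median GC content was 52.4%. The table of start sites held 6 of the 9 genes, and *Thbd*, *Plat* and *Snai2* were not among them.

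*S100g* encodes calbindin-D9k, a small calcium-binding protein of the S100 family that carries calcium through epithelial cells. The gene (ENSMUSG00000040808) lies at chrX:162961992-162964599 on the minus strand of GRCm38, inside the plus-strand gene *Ctps2*, with which it shares no exon bases. Its counts were 3, 21 and 5 in WT ASC replicates 1, 2 and 3 against 304, 360 and 263 in the knockout. WT ASC replicate 2 was above the other WT libraries, and every knockout library was far above every WT library. The level was 0.464 ± 0.499 CPM in WT against 11.7 ± 1.27 CPM in knockout ASCs (SD, n = 3 each). The log2 fold change of 4.69 (standard error 0.33), a 25.9-fold difference, ranked 1 of the 16758 tested genes. It was 6.0 when WT ASC replicate 2 was left out and 4.27 when WT ASC replicate 3 was left out.

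*Srgn* encodes serglycin, the core protein of an intracellular proteoglycan stored in secretory granules, and is abundant in blood cells. The gene (ENSMUSG00000020077) lies at chr10:62493833-62527451 on the minus strand. Counts were 7, 16 and 4 in WT ASCs and 199, 199 and 190 in *Bdh2*-knockout ASCs. As for *S100g*, the highest WT count was in replicate 2, and the genotypes did not overlap. The level was 0.437 ± 0.324 CPM in WT against 7.48 ± 0.388 CPM in knockout ASCs (SD, n = 3 each), and the log2 fold change of 4.14 (standard error 0.29), or 17.6-fold, ranked 3. Leaving out WT ASC replicate 2 gave 4.89, and leaving out WT ASC replicate 3 gave 3.68.

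*Pth1r*, the receptor for parathyroid hormone and parathyroid hormone-related peptide, is a G protein-coupled receptor that signals mainly through cyclic AMP. The gene (ENSMUSG00000032492) lies at chr9:110722085-110747145 on the minus strand, and 3.25% of its exon bases fall in exons of the plus-strand gene *Myl3*. Its counts were 14, 17 and 30 in the WT libraries against 249, 234 and 215 in the knockout. The highest WT library was here replicate 3, and the knockout libraries lay close together. The level was 0.917 ± 0.242 CPM in WT against 8.86 ± 0.247 CPM in knockout ASCs (SD, n = 3 each) and the log2 fold change was 3.24 (standard error 0.17), or 9.44-fold, which ranked 8. It was 3.49 without WT ASC replicate 3 and 3.10 without WT ASC replicate 1.

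**Figure D1:**
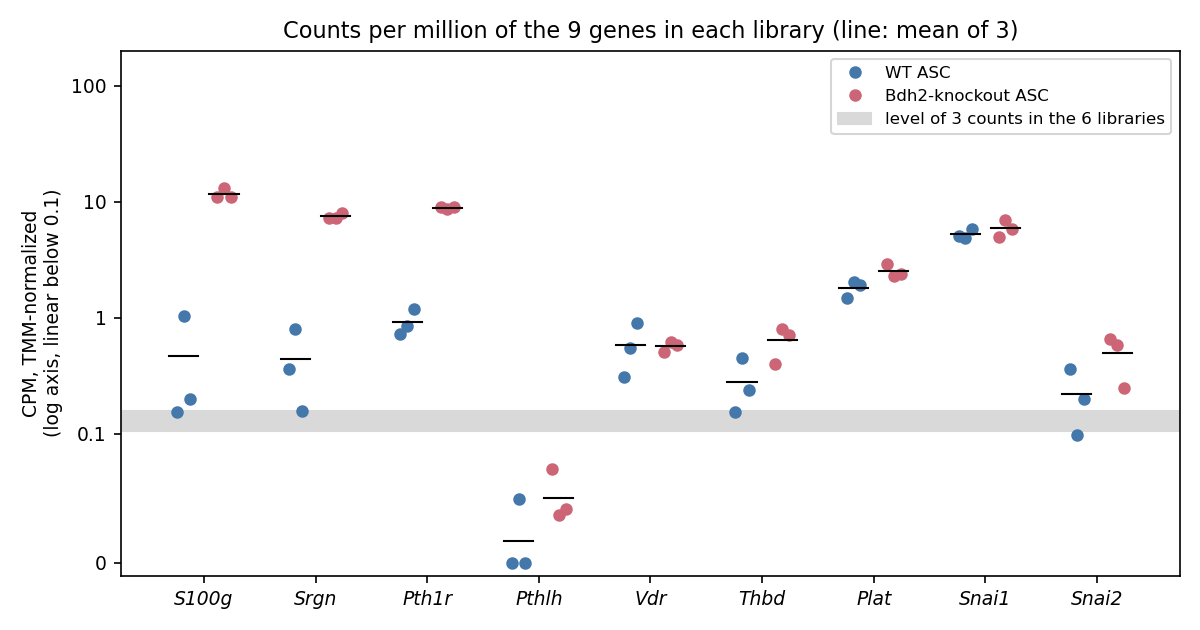
TMM-normalized CPM (log axis, linear below 0.1) of the 9 genes in each of the 3 WT and 3 knockout libraries, with the mean of 3 as a line and the level of 3 counts as a grey band. *S100g*, *Srgn*, *Pth1r* and *Plat* show no overlap between the genotypes and are higher in the knockout, which also holds for 26.3% of all tested genes. *Pthlh* lies under the band in every library.

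The ligand was hardly counted, and the vitamin D receptor overlapped between the genotypes. *Pthlh* had 0, 1 and 0 counts in the WT libraries against 2, 1 and 1 in the knockout, at or under 3 counts in every library, so no fold is given and a difference was not detectable at this depth. *Vdr*, the nuclear receptor through which vitamin D acts on *S100g* in the intestine, was counted 6, 11 and 23 times in WT and 14, 17 and 14 times in knockout ASCs. The knockout counts of *Vdr* lay within the range of the WT libraries. Its log2 fold change was -0.08 (standard error 0.39), and its sign turned by limma-voom (0.016), without knockout replicate 1 (0.017) and without WT ASC replicate 3 (0.41).

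The parietal endoderm markers *Thbd* and *Plat* showed smaller differences than *S100g*, *Srgn* and *Pth1r*. *Thbd*, a surface receptor for thrombin, was counted 3, 9 and 6 times in WT and 11, 22 and 17 times in knockout ASCs, which is 0.279 ± 0.150 and 0.638 ± 0.213 CPM (SD, n = 3 each). Its normalized values overlapped between the genotypes, and the log2 fold change was 1.18 (standard error 0.45). *Plat*, a protease that turns plasminogen into plasmin, was counted 29, 41 and 48 times in WT and 80, 63 and 57 times in knockout ASCs. Its level of 1.81 ± 0.280 CPM in WT against 2.53 ± 0.325 CPM in knockout ASCs (SD, n = 3 each) did not overlap between the genotypes, and the log2 fold change was 0.48 (standard error 0.20).

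Of the zinc finger repressors, *Snai1* was the more abundant, with 99, 99 and 147 counts in WT and 136, 189 and 140 counts in knockout ASCs. The levels of 5.27 ± 0.481 and 5.90 ± 0.999 CPM (SD, n = 3 each) overlapped, and the log2 fold change was 0.16 (standard error 0.15). *Snai2* was counted 7, 2 and 5 times in WT and 18, 16 and 6 times in knockout ASCs and did not pass the filter on low counts. Its values overlapped between the genotypes, and a fit to unfiltered counts put its log2 fold change at 1.21 (standard error 0.52). In all, 7 of the 9 genes passed the filter, *S100g* and *Srgn* through the knockout libraries alone, and 3 of these 7, *S100g*, *Srgn* and *Pth1r*, were called, all higher, where 21.0% of all tested genes were called higher. The count was 4 with *Thbd* without the filter, under the replicate block, without WT ASC replicate 2 or without knockout replicate 1, with *Plat* at a mean count of at least 50, and with *Snai2* without knockout replicate 3. Since these genes were chosen for that contrast, nothing is read from these counts.

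Per length, the order of the levels differed between the genotypes. In WT ASCs *Snai1* was highest at 3.31 FPKM (counts scaled to gene length and library size, mean of 3), followed by *S100g* at 0.985, *Pth1r* at 0.319, *Plat* at 0.295 and *Srgn* at 0.203 FPKM. *Snai2*, *Vdr* and *Thbd* were at 0.111, 0.106 and 0.0764 FPKM and *Pthlh* at 0.0104 FPKM. The ranges of neighbours in this order overlapped, except between *Snai1* and *S100g* and between *Thbd* and *Pthlh*. In *Bdh2*-knockout ASCs *S100g* was highest at 23.9 ± 2.60 FPKM (SD, n = 3), followed by *Snai1* at 3.57, *Srgn* at 3.34, *Pth1r* at 2.97 and *Plat* at 0.397 FPKM. *Snai2*, *Thbd*, *Vdr* and *Pthlh* followed at 0.240, 0.168, 0.0991 and 0.0304 FPKM. Neighbours overlapped for *Snai1* and *Srgn*, for *Snai2* and *Thbd* and for *Thbd* and *Vdr*.

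**Figure D2:**
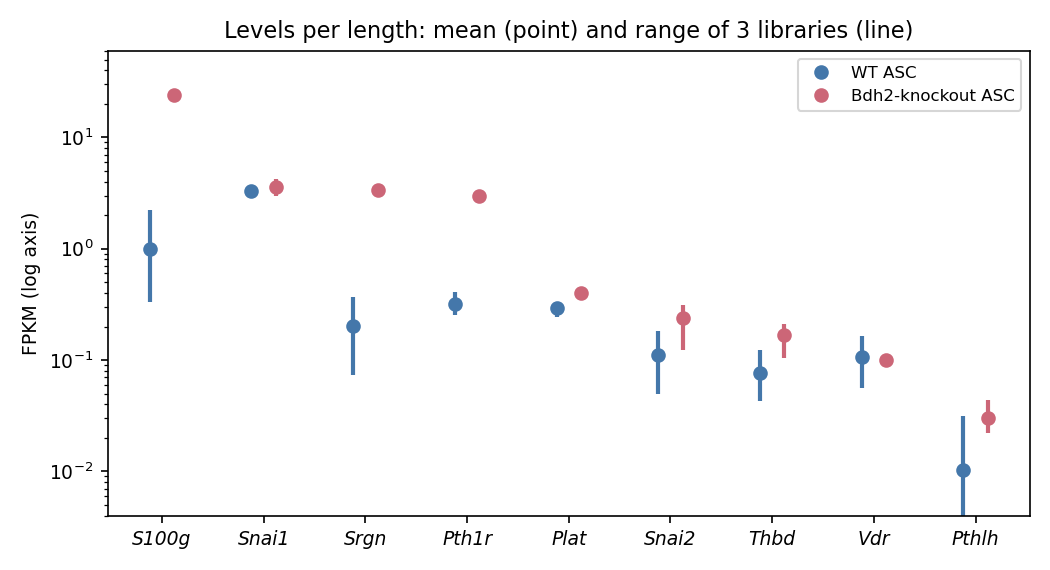
FPKM (log axis) of the 9 genes, with the mean as a point and the range of 3 libraries as a line, WT and knockout side by side and ordered by the knockout level; a range that reaches 0 is drawn from 0.004. *S100g* at 23.9 FPKM stands above *Snai1* in the knockout, and below it in WT ASCs.

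Among 22 other genes of the parietal endoderm, all tested, 15 were higher, 2 were lower and 5 were not called in *Bdh2*-knockout ASCs, and 10 of the 15 were at least 2-fold higher. The median log2 fold change of the list was 0.79, beside -0.01 over all tested genes. The list was chosen with earlier results of these data known, so none of its genes is independent evidence of its direction. The text of the paper also names 6 of these genes as endoderm markers, *Gata4*, *Gata6*, *Sox7*, *Sox17*, *Pdgfra* and *Sparc*. These 6 were all higher, and of the other 16 genes 9 were higher, 2 lower and 5 not called, with a median of 0.19. Without TMM normalization 14 genes of the list were higher and 3 lower.

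The transcription factors *Sox17* and *Sox7* rose by 3.00 (standard error 0.16) and 2.75 (standard error 0.23) on the log2 scale, and *Gata6* and *Gata4* by 2.02 and 1.89. *Dab2*, an endocytic adaptor, rose by 2.61 and *Pdgfra*, a receptor of primitive endoderm cells, by 2.04. The chains of type IV collagen, the network-forming collagen of basement membranes, rose together, *Col4a2* by 2.23 and *Col4a1* by 2.17 (adjusted p = 3.67e-10 in edgeR for each). The laminin chains of the same membrane rose less, *Lama1* by 1.21, *Lamb1* by 0.81 and *Lamc1* by 0.23, and the matrix protein *Sparc* by 0.78. *Nid1*, which links laminin to collagen, was not called (log2 fold change 0.10, adjusted p = 0.202 from edgeR). *Krt19*, a keratin, and *Serpinh1*, a collagen chaperone, were lower by -0.48 and -0.35 on the log2 scale. *Krt8*, *Krt18*, *Vim* and *Tfpi* were not called.

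**Figure D3:**
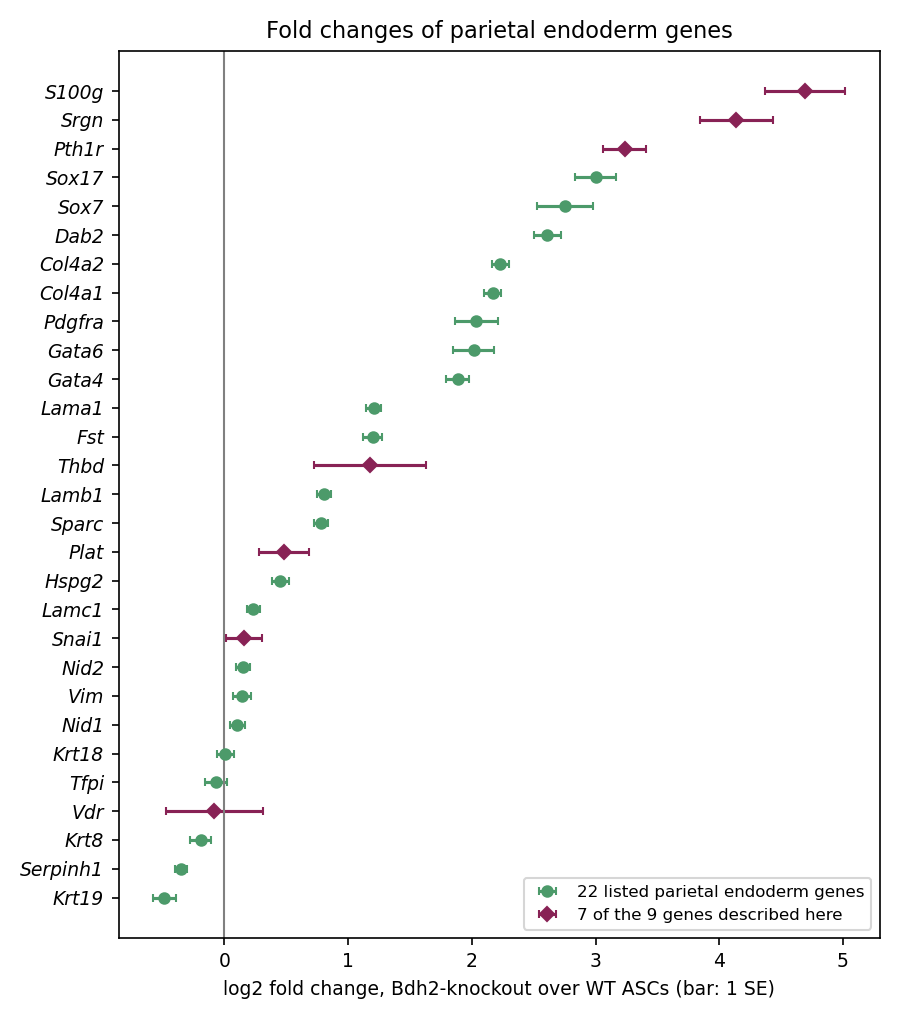
log2 fold change (knockout over WT, bar 1 standard error) of the 22 listed parietal endoderm genes (circles) and of the 7 of the 9 genes that passed the filter (diamonds). *S100g*, *Srgn* and *Pth1r*, at 4.69, 4.14 and 3.24, lie above every gene of the list, the highest of which is *Sox17* at 3.00.

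The visceral endoderm is the other derivative of the primitive endoderm and takes up and secretes nutrients. Of its 23 listed genes, 20 were tested, 9 were higher, 5 were lower and 6 were not called, with a median of -0.19 on the log2 scale. The uptake receptor *Cubn* and its partner *Amn* rose by 3.77 and 1.28, and *Foxa2*, *Ihh* and *Spink1* by 2.66, 2.18 and 2.12. *Afp*, the classical visceral endoderm marker, was at 0 to 4 counts in each library. The secreted proteins *Ttr* and *Apoa1*, also made by hepatocytes, were lower (-2.25 and -2.04). Hepatocyte markers moved with them in the libraries: *Ttr* was counted 470, 324 and 52 times in WT and 45, 176 and 11 times in knockout ASCs. With summed hepatocyte markers as a covariate, 9 genes of the list were higher and 1 was lower, and *Ttr* was at -0.06 and no longer called. *Ttr* also lost its call without WT ASC replicate 1 or 2 or knockout replicate 1 or 3, where its log2 fold change was -1.61 to -2.14. The call was lost too by DESeq2 (-2.30) and limma-voom (-2.20). Over all fits with 1 library left out, the log2 fold change of *Ttr* ranged from -3.67 to -1.61. Without WT ASC replicate 2, knockout replicate 1 or knockout replicate 3 the list again had 1 lower gene, while without WT ASC replicate 3 or knockout replicate 2 it had 8. On the same covariate the log2 fold changes of *S100g*, *Srgn* and *Pth1r* were 4.96, 4.25 and 3.09.

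In parathyroid hormone signaling, the other ligands were at or near 0, with no count of *Pth* in any library and at most 3 of *Pth2*. *Pth2r*, the second receptor of the family, was counted at most 4 times. Of 35 listed genes, 31 were tested, 9 were higher, 5 were lower and 17 were not called, with a median of 0.06 on the log2 scale, and the share called of 45.2% stands beside 41.7% of all tested genes. Without TMM 5 were higher and 7 lower, and with the hepatocyte covariate 5 and 5. The number called fell to 7 without WT ASC replicate 2 and to 9 without knockout replicate 2. *Rgs2*, a brake on G protein signaling, was the one gene to pass a 2-fold change (1.13, standard error 0.25, adjusted p = 0.00269 from edgeR). *Ramp3*, which can partner receptors of this class, rose by 0.48, a call lost without WT ASC replicate 2 (0.44), without knockout replicate 1 (0.42) or with the hepatocyte covariate (0.37), and *Ramp2* was not called (-0.15, adjusted p = 0.602 from edgeR).

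Of 16 genes of vitamin D and calcium transport, 8 were tested, 1 was higher, 2 were lower and 5 were not called, with a median of 0.05. The higher call was lost by DESeq2, without TMM, at a mean count of at least 50, with the hepatocyte covariate, under the replicate block, and when WT ASC replicate 2 or 3 or knockout replicate 1 or 3 was left out, where 0 were higher and 2 to 4 lower. *Calb2*, which encodes another calcium-binding protein, calretinin, fell by 2.12 (standard error 0.19), with 94, 104 and 113 counts in WT and 26, 34 and 27 counts in knockout ASCs. *Atp2b4*, a plasma membrane calcium pump, fell by 0.71. The calcium channel *Trpv6* and *Cyp24a1*, a vitamin D target that encodes the enzyme which breaks the hormone down, were at 0 to 3 and 0 to 4 counts. *Calb1*, calbindin-D28k, did not pass the filter, with 0, 2 and 0 counts in WT and 2, 7 and 9 in knockout ASCs. A fit to unfiltered counts gave it a log2 fold change of 2.72 (standard error 0.99, edgeR adjusted p = 0.0291). Among 16 other S100 genes 6 were tested, of which *S100a6* (0.84) and *S100a11* (0.17) were higher and 4 were not called. With the hepatocyte covariate, or without knockout replicate 1 or 2, 1 of these genes was called, and without TMM 1 was higher and 1 lower.

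Around *Thbd* and *Plat*, 18 of 22 genes of plasminogen activation and thrombin control were tested, 5 were higher, 1 was lower and 12 were not called, with a median of 0.01. The urokinase receptor *Plaur* and tissue factor *F3* rose by 0.50 and 0.48, while *Plau* (0.20) and *Procr* (0.47) were not called. The lower gene was *F2*, prothrombin, a hepatocyte product, at -1.80, which was -0.55 and not called with the hepatocyte covariate. Without knockout replicate 2, 10 genes of this list were called.

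Around *Snai1* and *Snai2*, 20 of 22 genes of epithelial-mesenchymal transition were tested, 5 were higher, 3 were lower and 12 were not called, with a median of 0.04. *Cdh2*, the mesenchymal cadherin, rose by 0.38 and *Fn1*, fibronectin, fell by 0.35. *Cdh1*, the epithelial cadherin, was at 0.02 (standard error 0.04, edgeR adjusted p = 0.769), while *Zeb1*, *Zeb2*, *Twist1* (0.38) and *Vim* (0.14) were not called. *Twist1* was called without the filter (0.39), with the hepatocyte covariate (0.56), without WT ASC replicate 2 (0.53) and without knockout replicate 3 (0.51), and *Vim* without the filter (0.16) and without WT ASC replicate 3 (0.21). *Foxc2* was the one gene past 2-fold, at -2.75, with 14, 13 and 19 counts in WT and 4, 4 and 0 in knockout ASCs.

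Around *Srgn*, 19 of 21 genes of glycosaminoglycan chain synthesis and its partners were tested, 5 were higher, 3 were lower and 11 were not called, with a median of -0.01. None of these passed 2-fold, and *Cd44*, a receptor of serglycin, was not called (0.16, adjusted p = 0.267 from edgeR). Of 15 other proteoglycan cores 13 were tested, *Gpc4* (0.43) was higher, 4 were lower and 8 were not called, and without TMM 6 were lower. *Bgn*, biglycan, was the lowest at -1.45 (-1.04 and not called with the hepatocyte covariate), with 22 to 33 counts in WT and 7 to 16 in knockout ASCs.

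**Figure D4:**
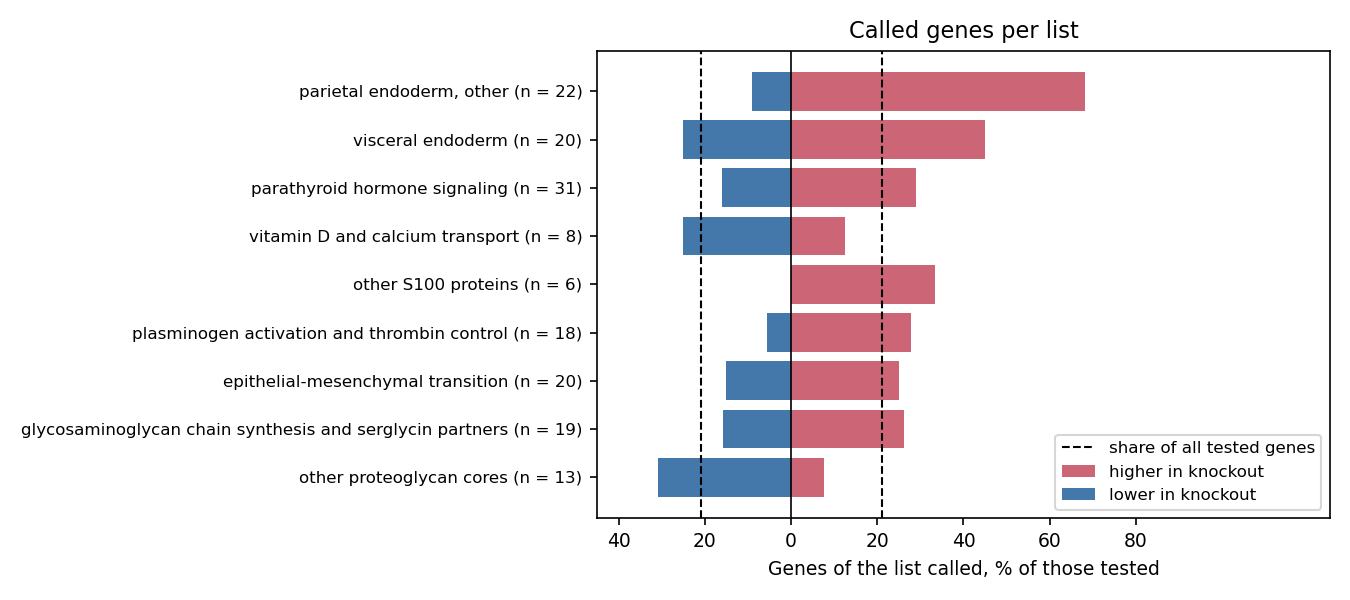
Share of the tested genes of each list called higher (right of 0) or lower (left of 0) in the knockout, in percent, with dashed lines at the shares of all tested genes, 21.0% and 20.8%. The parietal endoderm list, with 15 of 22 genes higher, extends farthest to the right. The lists were chosen with earlier results of these data known.

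Markers of other cell types that could carry these RNAs were read in the same libraries. Summed hematopoietic markers, of interest because blood cells hold much serglycin, were at 101, 107 and 117 CPM in WT and 134, 138 and 129 CPM in knockout ASCs, with 2 of 5 tested markers higher and 3 not called, and *Ptprc*, the pan-leukocyte marker, was at 0 to 6 counts. Summed endothelial markers, of interest for thrombomodulin, were at 95.9 to 105 CPM in WT and 71.1 to 73.2 CPM in knockout ASCs. Of the 7 tested, 3 were lower, 3 were not called and *Esam* was higher, past 2-fold, and the sum was mostly *Pecam1*. Fibroblast markers summed to 32.0 to 36.4 and 23.2 to 28.2 CPM, with 2 of 6 tested lower, and trophoblast markers to 21.8 to 23.7 and 19.3 to 22.7 CPM, with 3 of 6 tested lower. Their part in the levels of the 9 genes was not tested.

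The profile of each gene over the 6 libraries was compared with those of tested genes outside the 9 with a mean of at least 1 CPM, as the root mean square difference of centred log2 CPM values, which is 0 for the same profile. *S100g* was closest to *Cubn* (0.777), *Hkdc1* (1.16) and *Car4* (1.16), and *Srgn* to *Cubn* (0.568), *Car4* (0.670) and *Klb* (0.741). *Pth1r* was closest to *Fgf5* (0.181), *Shisa6* (0.197) and *Sox7* (0.259), which like it were highest among WT libraries in replicate 3. *S100g* and *Srgn* differed from each other by 0.542, and from *Pth1r* by 1.08 and 0.780. Each of these genes was higher in the knockout, and the profiles share that step.

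The calls of neighbouring genes stand beside 21.0% called higher and 20.8% called lower among all tested genes. Within 500 kb of *S100g* 5 genes were tested, 0 were higher and 2 were lower, with *Ctps2*, the gene that contains it, at -0.27 (adjusted p = 0.0104 from edgeR). Around *Srgn* 19 genes were tested, 6 were higher and 6 lower, and *Hkdc1*, a hexokinase-like gene whose leftmost base lies 111 kb away, was at 3.42 (standard error 0.34). It was counted 4 times in each WT library and 65, 60 and 37 times in the knockout. The nearest tested genes, *Vps26a* and *Kif1bp*, were at 0.01 and 0.19. Around *Pth1r* 19 genes were tested, 7 were higher, 4 were lower, and none exceeded 0.43, with the nearest, *Ccdc12* and *Prss42*, at 0.22 and -0.93. Only the nearest tested genes and *Hkdc1* were followed through the alternatives, and the other neighbours were not checked. Among the genes followed, the calls of 4 were lost when single libraries were left out. This was knockout replicate 1 or 2 for *Ctps2* (-0.22 at the smallest), WT ASC replicate 1 or 2 or knockout replicate 2 or 3 for *Kif1bp* (down to 0.15), WT ASC replicate 2 or knockout replicate 2 for *Ccdc12* (down to 0.14), and WT ASC replicate 2 or knockout replicate 1 for *Prss42* (-0.79 at the smallest). With the hepatocyte covariate those of *Kif1bp*, *Ccdc12* and *Prss42* were lost too, at 0.13, 0.21 and -0.86. The call of *Kif1bp* was also lost by DESeq2 (0.19) and without TMM (0.13), and that of *Ccdc12* without TMM (0.16).

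**Figure D5:**
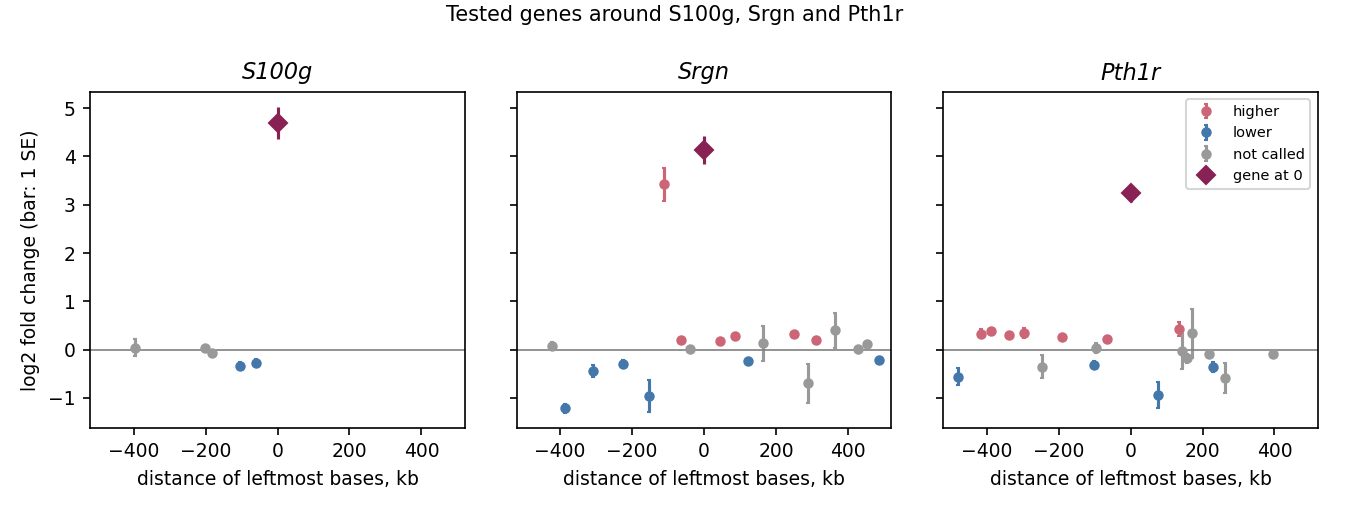
log2 fold change (bar 1 standard error) of tested genes within 500 kb of *S100g*, *Srgn* and *Pth1r* against the distance of the leftmost bases in kb, coloured by call. *Hkdc1*, at 3.42, is the neighbour nearest in size to *Srgn*, and no neighbour of *S100g* or *Pth1r* exceeds 0.43.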

How the data were processed

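RNA of WT and *Bdh2*-knockout ASCs was sequenced after a TruSeq preparation that the labels name without a strand setting. The authors mapped reads with HISAT2 2.0.5, counted them on genes and deposited 1 table of raw counts, with gene lengths and positions on GRCm38. Of the gene identifiers, 99.4% were found in the GENCODE M21 annotation of the reference chromosomes. Rows without a gene name held 0.140% to 0.158% of the counts and were kept, and leaving them out was an alternative added after seeing the data.

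Counts were fitted in R 4.3.3 with edgeR 4.0.16 (filterByExpr, TMM, then glmQLFit with glmQLFTest on genotype alone), with Benjamini-Hochberg adjustment over 16758 genes and a threshold of 0.05. Adjusted p-values come from this fit. Standard errors were derived from it, as the size of the log2 fold change divided by the square root of the F statistic. CPM use TMM library sizes, FPKM were computed here from counts and listed lengths, and summed marker CPM use library totals. Profiles used log2(CPM + 0.1). Python 3.11.15, with pandas 2.3.3 and matplotlib 3.10.9, served for tables and plots. The fits were first tested on simulated counts.

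Alternatives were DESeq2 1.42.0, limma-voom (limma 3.58.1), library totals without TMM, RLE factors, no filter, a minimum mean count of 50, a replicate block, a hepatocyte marker covariate and each of the 6 libraries left out in turn. The 9 genes and the lists were chosen with earlier results of these data known. Genes named are the 9, the targeted gene, fixed partners, up to 6 genes per list called past 1 on the log2 scale, the nearest tested neighbours, and the 3 nearest profiles per gene. Others, such as *Gata4*, *Gata6*, *Krt19*, *Serpinh1*, *Atp2b4*, *S100a6*, *S100a11* and *Gpc4*, were named after their values were seen. Values of some list genes are not reported here.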

Additional observations from a re-analysis of the deposited data

How the results depend on the processing

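Under 15 alternatives the log2 fold changes ranged from 4.27 to 6.0 for *S100g*, 3.68 to 4.89 for *Srgn* and 3.09 to 3.49 for *Pth1r*. Called genes numbered 5243 with the hepatocyte covariate and 6107 by DESeq2, beside 6996. Under the replicate block 6452 genes were called, and 16 of the parietal endoderm list. Correlations of deviations between same-numbered samples were -0.154, 0.0995 and 0.245, and pairs with different numbers ranged from -0.349 to 0.312. Whether equal numbers mark parallel cultures is not stated, so the block was not used for the values reported.

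Called genes of the parathyroid hormone list numbered 14, and 7 to 13 when 1 replicate was left out (7 without WT ASC replicate 2, 9 without knockout replicate 2). Those of the vitamin D list numbered 3, and 6 without the filter. Those of the other S100 genes numbered 2, and 1 with the hepatocyte covariate and 1 without knockout replicate 1 or 2. Those of the plasminogen list numbered 6, and 10 without knockout replicate 2. Those of the other proteoglycan cores numbered 5, and 3 with the hepatocyte covariate. The visceral endoderm list had 5 lower genes, 1 by DESeq2 and with the covariate, 2 by limma-voom, 7 with library totals, 6 at a mean count of at least 50, 8 under the replicate block and without the filter, and 1 to 8 with 1 replicate left out. Among genes that were not called, the sign turned for *Vdr* (0.016 by limma-voom, -0.37 to 0.41 with 1 replicate left out), *Tfpi* (0.031 with the covariate, -0.17 to 0.064 with 1 replicate left out), *Zeb2* (-0.11 with the covariate, -0.060 to 0.16 with 1 replicate left out), *Cdh1* (-0.040 with library totals) and *Vps26a* (-0.053 with library totals, -0.0068 at a mean count of at least 50, -0.015 to 0.032 with 1 replicate left out). The cause was not tested. Genes under 3 counts per library, such as *Pthlh*, are limited by depth.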
